A study of Mus musculus with 3 samples.

Results

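Lpl and 6 genes that act with lipoprotein lipase or on the fatty acids it frees (Gpihbp1, Lmf1, Angptl4, Cd36, Fabp4 and Vldlr) were followed through single-cell libraries of mouse glomeruli. They were taken by symbol, 7 of the 31058 gene rows of the count matrices, and were chosen with their values in these libraries known. Their UMIs (unique molecular identifiers, each marking 1 captured RNA molecule) were summed per cell class and library and expressed as CPM, counts scaled to a class total of 1000000 UMIs. The levels are therefore descriptions, and a gene is called apart between libraries when its level differs 1.5-fold or more with at least 20 summed UMIs.

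Each of 3 groups has 1 library, and all mice were healthy C57Bl/6 animals carrying Pax2.rtTA, TetO.Cre and R26.Confetti, given doxycycline at 20 days of age and followed to 90 days. The female ERaKO mouse (titled RPC-ERαKO) additionally carried ERalphaKO, a knockout of oestrogen receptor alpha; the male and female mice did not. Under doxycycline, Pax2.rtTA and TetO.Cre switch on Cre where Pax2 is active, and Cre lights up the Confetti colour reporter. The labels used here do not give the deleted part of Esr1, the cells that lack it or the number of mice behind a library.

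Lipoprotein lipase splits the triglycerides of circulating lipoproteins into fatty acids. It is folded in the endoplasmic reticulum with the help of the membrane protein LMF1, secreted by parenchymal cells, and carried to the capillary lumen by GPIHBP1 of the endothelium. ANGPTL4, a secreted protein induced by fasting and fatty acids, inactivates it. Fatty acids are then taken up with the help of CD36 and bound inside cells by FABP4, while VLDLR, a cell surface receptor, binds triglyceride-rich lipoproteins whole.

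On GRCm38, Lpl (ENSMUSG00000015568) lies on chromosome 8 from 68880491 to 68907448, Gpihbp1 on chromosome 15 from 75596628 to 75599481, and Lmf1 and Angptl4 both on chromosome 17, from 25579085 to 25662826 and from 33773750 to 33781830. Cd36 lies on chromosome 5 from 17781690 to 17888801, Fabp4 on chromosome 3 from 10204088 to 10208576, and Vldlr on chromosome 19 from 27216484 to 27254231. Promoter sequence was at hand for Lmf1, Cd36 and Vldlr (RefSeq, GRCm38.p6, 300 bases around the start). The pair shown sets Cd36, found in few cell classes, beside Lmf1, found in all of them. Each is the 250 bases before a RefSeq start on the gene's strand. The Cd36 start lies inside the gene span given above, downstream of its outer end at 17888801. The sequence before that outer end is not shown. Capitals in the Cd36 sequence mark its matches to AGGTCA and to 2 copies of AGGTCA 1 base apart with at most 2 mismatches, the repeat that PPAR receptors bind; both lie on the opposite strand, and the first contains the only GGTCA of the window. Lmf1 holds none of these.
Cd36, chr5:17835897-17836146, minus strand: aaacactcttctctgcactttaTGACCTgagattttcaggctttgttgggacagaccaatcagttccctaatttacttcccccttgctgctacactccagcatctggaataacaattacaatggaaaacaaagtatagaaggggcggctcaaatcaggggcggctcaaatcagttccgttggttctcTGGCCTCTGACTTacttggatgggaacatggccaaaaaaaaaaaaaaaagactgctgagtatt
Lmf1, chr17:25578924-25579173, plus strand: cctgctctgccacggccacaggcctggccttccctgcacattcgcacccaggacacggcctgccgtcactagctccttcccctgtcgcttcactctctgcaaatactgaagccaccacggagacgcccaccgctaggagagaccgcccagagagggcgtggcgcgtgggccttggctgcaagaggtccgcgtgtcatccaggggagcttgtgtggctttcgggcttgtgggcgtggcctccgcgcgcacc
Within these 300 bases GC content was 43.0% in Cd36, 66.3% in Lmf1, and 43.0% and 68.0% at the 2 starts of Vldlr. The AGGTCA repeat with 1 base between, searched on both strands, occurred in 3.86% of 32851 mouse promoters of this length, AGGTCA alone in 16.3% and GGTCA, which lies within AGGTCA, in 40.5%. The oestrogen response element searched for (GGTCA, 3 bases, TGACC) occurred in 0.07% of them and in none of the 3 members' windows. Neither did these windows hold the E-box CACGTG or the D-box TTATGTAA, found in 7.15% and 0.938% of promoters.

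The libraries held 3986 female ERaKO, 4244 male and 3555 female barcodes with 44585342 to 47522141 UMIs each, and 2471, 3221 and 2847 cells were kept. More than 25% mitochondrial UMIs were found in 34.0% of ERaKO, 21.0% of male and 17.7% of female barcodes, and 16 barcode sequences occurred in more than 1 library. Clusters were named from marker genes. The podocyte-like class, called podocytes below, had 777 ERaKO, 1145 male and 1331 female cells and the endothelial-like class 474, 770 and 688, and each class carried its own markers (in podocytes, 27278.6, 30049.9 and 27378.1 CPM over 12 markers). The targeted gene Esr1 could not check the labels. The deleted part is not given, and a 3′ count need not show a deletion elsewhere in the gene. Esr1 had 3 UMIs in ERaKO, 2 in male and 1 in female podocytes, and 25, 40 and 25 UMIs (14.4, 22.1 and 19.9 CPM) in smooth muscle cells. Tubule cells had 71 UMIs (14.7 CPM) in ERaKO, 15 (2.96 CPM) in male and 22 (5.37 CPM) in female cells. The libraries held tubule segments in different numbers, and the part of this in the Esr1 levels was not tested.

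Of the members, Lpl differed most between the ERaKO and female libraries in podocytes and endothelial cells. In podocytes it stood at 45.0 CPM (95% interval of the count 40.2 to 50.3) in the female ERaKO library, 970.5 CPM (951.7 to 989.5) in the male and 1043.0 CPM (1027.0 to 1059.1) in the female library. The ERaKO level was 22.7-fold lower than the female one, from 319 against 16234 UMIs (log2 ratio −4.50, −4.70 to −4.37), while the male level lay within 1.07-fold of it (−0.10, −0.14 to −0.07). These differences were used to choose Lpl and carry no test, and with 1 library per group the genotype cannot be told apart from the animal or the library.

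The low podocyte level was spread over the whole class. Lpl was detected in 25.7% of ERaKO podocytes (22.7 to 29.0), 99.3% of male ones (98.6 to 99.7) and 99.8% of female ones, and in 14.3%, 96.9% and 97.7% once every cell was thinned to 4000 UMIs. The median podocyte held 0 Lpl UMIs in the ERaKO, 8 in the male and 10 in the female library, at median depths of 7415, 7792 and 9221 UMIs. The ERaKO podocyte with most Lpl held 7 UMIs, below the male and female medians, and 0.772% of ERaKO, 77.2% of male and 86.5% of female podocytes held 5 or more. Parietal cells, the lowest of the 7 classes by CPM in each library, had a UMI in 9.71%, 29.5% and 26.9% of cells at median depths of 11839, 9324.5 and 9015 UMIs.

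**Figure D1:**
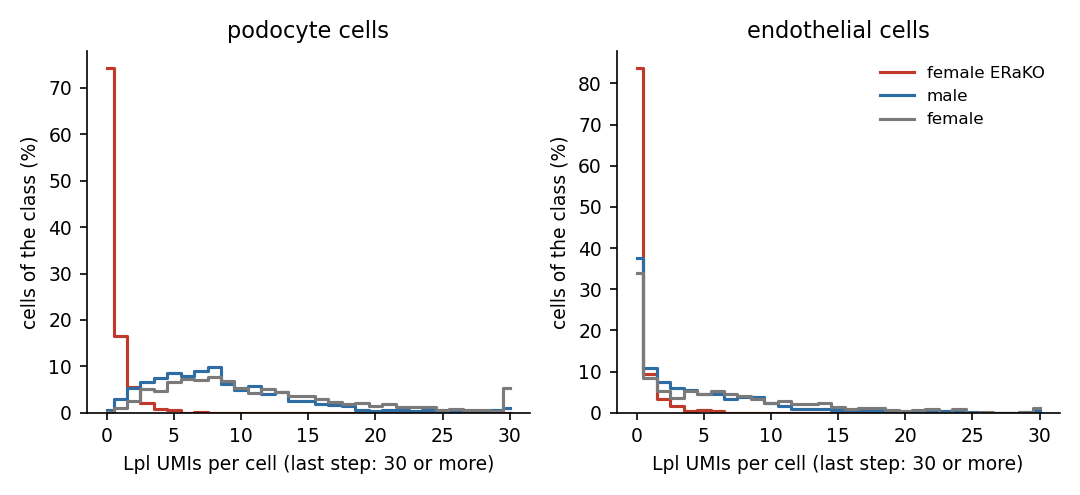
Share of cells (y axis, percent of the class) by the number of Lpl UMIs in the cell (x axis) for podocytes and endothelial cells of the female ERaKO, male and female libraries. The ERaKO line peaks at 0 UMIs, with 74.3% of podocytes there, while the male and female podocyte lines spread around medians of 8 and 10 UMIs. All 3 endothelial lines peak at 0, with 83.8% of ERaKO, 37.5% of male and 33.9% of female cells there.

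All 3 podocyte clusters showed differences of similar size. ERaKO over female, the log2 ratio was −4.42 (−4.71 to −4.19) in cluster 0, −4.63 (−4.94 to −4.41) in cluster 1 and −4.37 (−4.75 to −4.06) in cluster 4, and male over female it was −0.12, −0.09 and −0.11. Podocytes with a UMI of a Confetti reporter, a possible sign that Cre had acted in them or their progenitor, were no exception. In the ERaKO library Lpl was 53.1 CPM (40.5 to 68.3) in 87 podocytes with a reporter UMI and 43.5 CPM (38.4 to 49.1) in 690 without one, intervals that overlap. It was 951.1 and 975.7 CPM in the male and 1050.4 and 1040.1 CPM in the female library. A reporter UMI was found in 11.2% of ERaKO, 18.8% of male and 20.8% of female podocytes. It was also found in 5.06%, 7.92% and 5.09% of endothelial cells. Whether a reporter UMI came from the cell itself was not tested. A cell with no reporter UMI may still be labelled, since reporter detection depends on depth: podocytes with a reporter UMI had median depths of 8935, 8758 and 12554 UMIs, against 7285.5, 7621.5 and 8824 without.

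Endothelial Lpl followed the same order as podocyte Lpl. It was 32.0 CPM (27.1 to 37.4) in ERaKO, 471.1 CPM (454.4 to 488.2) in male and 544.8 CPM (527.6 to 562.4) in female endothelial cells, 16.6-fold lower in ERaKO than in female (−4.05, −4.33 to −3.86). Erythroid markers (5 genes, all detected) followed the endothelial order too, at 33.2 CPM in ERaKO, 1036.8 in male and 1206.3 in female endothelial cells, but not the podocyte order, at 655.4, 806.2 and 8.54 CPM. With haemoglobin and mitochondrial genes left out of the totals, ERaKO over female was −4.04 in endothelial cells and −4.49 in podocytes; any other part of these cells in the result was not tested.

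The endothelial clusters differed widely in Lpl. Cluster 2, with 4 of 6 glomerular capillary markers 2-fold higher than in the other cells, had 65.2 CPM in ERaKO, 1015.8 in male and 1139.8 in female cells (ERaKO over female −4.11, −4.43 to −3.85). Cluster 3, with 5 of 8 arterial markers higher, had only 14.5, 21.3 and 27.0 CPM (−0.85, −1.50 to −0.32). Cluster 11, led by Calca and Fabp4, had 20.1, 245.5 and 301.8 CPM (−3.85, −5.14 to −2.91). Cluster 18, led by Esm1 and Igfbp3 and with 7 of 8 arterial markers higher, had 19.5, 234.3 and 548.9 CPM (−4.75, −6.46 to −3.55). The ERaKO values of clusters 11 and 18 rest on only 8 and 5 UMIs. The ERaKO library thus held the least Lpl in each of the 4 clusters, and the clusters rich in Lpl in the other libraries were those with the widest difference. Under a stricter cell filter (1000 genes or more, mitochondrial share up to 10%) the class ratio was −2.49, because under that filter 163 of 186 ERaKO and 358 of 379 female cells of cluster 2 fell in clusters without a name.

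**Figure D2:**
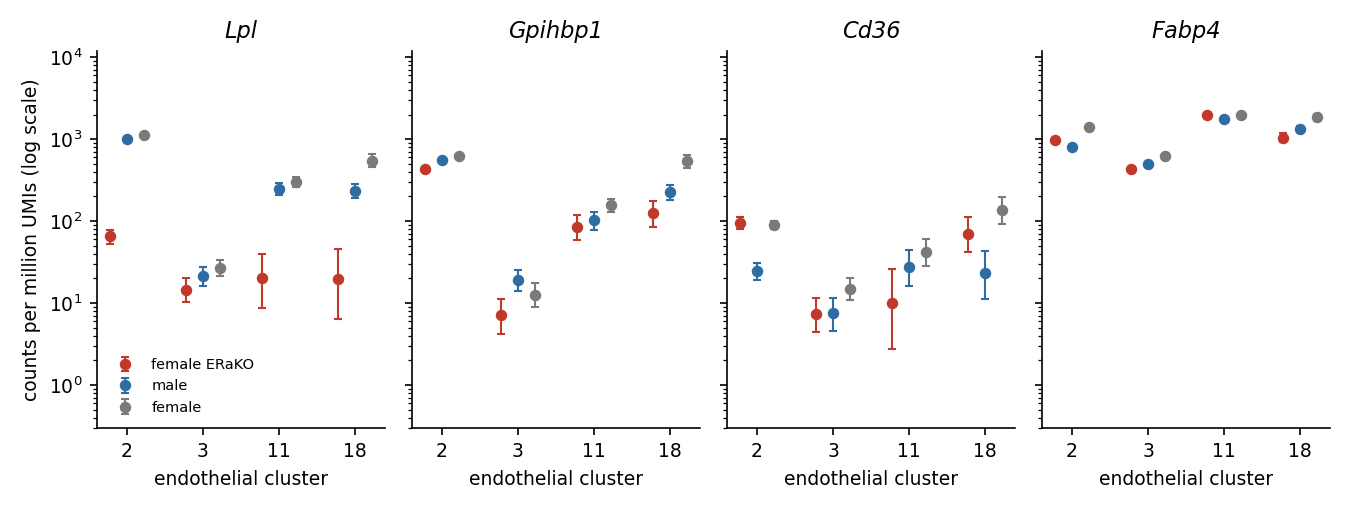
CPM on a log scale (y axis) of Lpl, Gpihbp1, Cd36 and Fabp4 in 4 endothelial clusters (x axis) of the female ERaKO, male and female libraries; bars are exact 95% Poisson intervals. Lpl of ERaKO cells lies far below the other libraries in clusters 2, 11 and 18, whereas Fabp4 of the 3 libraries stays close together in cluster 11, between 1747.5 and 1966.0 CPM.

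Mesangial, smooth muscle and tubule cells, taken as classes, were less than 1.5-fold apart between ERaKO and female. In mesangial cells Lpl was 483.6 CPM (450.6 to 518.4) in ERaKO, 367.6 (336.4 to 400.9) in male and 324.6 (277.9 to 376.9) in female cells, a log2 ratio of 0.57 (0.34 to 0.82) for ERaKO over female just under 1.5-fold. That ratio depended on which cells counted as mesangial. Leaving out cells with 10 or more endothelial marker UMIs gave 588.7, 403.8 and 275.1 CPM and a ratio of 1.09, past 1.5-fold, whereas it was 0.01 with libraries clustered separately, −0.04 with unnamed clusters added and −0.10 with doublets kept. Smooth muscle and renin cells had 310.5, 304.7 and 339.6 CPM, with overlapping intervals, but the libraries differed in makeup: renin cells of cluster 9 were 109 of 247 ERaKO, 97 of 284 male and 35 of 159 female cells. Within clusters the female library was highest in all 3. Cluster 9 had 541.5, 585.2 and 777.1 CPM and contractile cells of cluster 13 had 167.9, 231.9 and 368.0 CPM (ERaKO over female −0.52, −0.75 to −0.29, and −1.13, −1.64 to −0.63). Cluster 8 had 89.8, 114.3 and 143.6 CPM (−0.67, −1.19 to −0.19).

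Tubule Lpl differed widely between segments, and the libraries held these in different numbers. The class stood at 453.2 CPM in ERaKO, 209.7 in male and 391.1 in female cells. Proximal cluster 16, with 86 ERaKO cells, 1 male and 40 female cells, had 945.5 CPM in ERaKO and 1347.4 in female cells (−0.51, −0.61 to −0.41). The 99 male cells of proximal cluster 14 had 486.7 CPM. Of the 1937 Lpl UMIs of ERaKO proximal cells, 1867 lay in cluster 16 and 62 in cluster 15. The 36 ERaKO cells of cluster 14 thus held few, unlike its male cells. Proximal cluster 15 had 89.3, 34.8 and 89.2 CPM. The male tubule value, 1.86-fold lower than the female one, came with a different proximal makeup, and its ratio was 0.01 on the log2 scale under the stricter cell filter. Loop and distal tubule cells had 263.7, 429.9 and 412.6 CPM in 41 ERaKO, 54 male and 16 female cells, lower in ERaKO than in female (−0.64, −0.96 to −0.33). Intercalated cells of the collecting duct had more Lpl in ERaKO, with 111.4 CPM in 28 ERaKO cells, 41.2 CPM in 63 male cells and 24.6 CPM in 34 female cells (ERaKO over female 2.14, 1.55 to 2.83).

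Parietal cells and phagocytes also held less Lpl in ERaKO, from few UMIs. Parietal cells had 9.53 CPM in ERaKO, 32.5 in male and 35.9 in female cells (ERaKO over female −1.81, −2.60 to −1.23, from 39 and 38 UMIs). The 12 podocyte markers summed to 629.7, 489.5 and 700.2 CPM in parietal cells, against 27278.6, 30049.9 and 27378.1 CPM in podocytes. The part of podocyte RNA in parietal Lpl was not tested. Phagocytes, which in other tissues make the lipase themselves, had 18.4, 75.6 and 259.3 CPM from 7, 49 and 171 UMIs (ERaKO over female −3.75, −5.15 to −2.74; male over female −1.76). Their endothelial marker sums were 1295.4, 185.1 and 2389.8 CPM, and without cells of 10 or more endothelial marker UMIs Lpl was 20.8, 77.6 and 145.5 CPM. Unnamed cluster 5, led by Cst12, Dkk3 and Ogn, had 20.4, 499.7 and 633.1 CPM (−4.89, −5.67 to −4.32) and was likewise low in ERaKO.

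**Figure D3:**
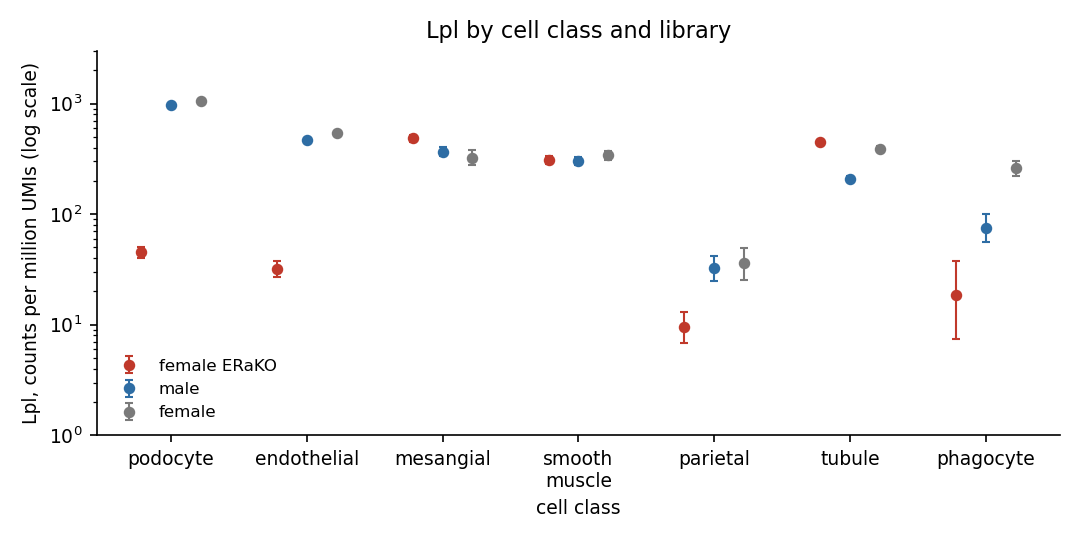
Lpl in CPM on a log scale (y axis) by cell class (x axis) in the female ERaKO, male and female libraries; bars are exact 95% Poisson intervals and cover counting error only. ERaKO podocytes (45.0) and endothelial cells (32.0) lie more than 10-fold below the other libraries, and ERaKO mesangial cells (483.6) lie above them.

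The classes that held the Lpl RNA of a library differed too. Kept cells held 4128 of the 7053 deposited Lpl UMIs in ERaKO, 16277 of 19285 in male and 24063 of 26642 in female. In the ERaKO library 7.73% of the Lpl UMIs of kept cells came from podocytes, 3.71% from endothelial cells, 19.3% from mesangial and 53.1% from tubule cells. Podocytes supplied 62.6% of it in the male and 67.5% in the female library, and tubule cells 6.53% and 6.66%. The 86 ERaKO cells of proximal cluster 16 alone held 1867 Lpl UMIs, and that cluster had 1 male and 40 female cells. All kept cells together had 147.1 CPM in ERaKO, 515.0 in male and 708.7 in female cells, a figure that also follows the share of podocytes, 31.4%, 35.5% and 46.8% of kept cells.

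The genes on either side of Lpl were less than 1.5-fold apart in podocytes. Of the annotated genes within 1 Mb, 16 had at least 20 summed UMIs in the ERaKO contrast and 0 of them were 1.5-fold apart, where 6.58% of 11347 genes were. Their log2 ratios ranged between −0.46 and 0.17 with a median of −0.06. Male over female, 0 of 17 were apart (3.98% of 11513 genes), from −0.28 to 0.51. With so few genes, counts of 0 are near the shares over all genes and mark nothing particular to these neighbours. The nearest counted gene before Lpl, Ints10, a subunit of the Integrator complex, had 94 UMIs in ERaKO and 218 in female podocytes (−0.07, −0.44 to 0.28), and the nearest counted gene after it, Atp6v1b2, a subunit of the vacuolar proton pump, had 238 and 618 (−0.23, −0.46 to −0.02).

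Lmf1, the folding factor of the lipase, was less than 1.5-fold apart between the libraries in podocytes, endothelial and mesangial cells. Podocytes had 23.0 CPM in ERaKO, 18.7 in male and 17.5 in female cells (ERaKO over female 0.38, 0.11 to 0.68), and endothelial cells 11.7, 11.9 and 10.5 CPM, with overlapping intervals. Tubule cells had 21.5, 14.8 and 19.0 CPM. Its ERaKO level was 1.5-fold or more above the female one in parietal cells, with 21.5 against 11.3 CPM from 88 and 12 UMIs (0.87, 0.05 to 1.93), and in smooth muscle, with 13.2 against 4.77 CPM from 23 and 6 UMIs (1.30, 0.13 to 3.06). In both classes the lower bound of the interval was close to 0.

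Gpihbp1, the capillary anchor of the lipase, was highest in the glomerular capillary cluster and was lower in the ERaKO library. Endothelial cells had 159.6 CPM (148.5 to 171.3) in ERaKO, 266.1 (253.6 to 279.1) in male and 303.5 (290.7 to 316.7) in female cells, so ERaKO was 1.90-fold lower than female (−0.92, −1.05 to −0.81) and male 1.14-fold lower (−0.19). The endothelial makeup moved with this: cluster 2 gave 186 of 474 ERaKO, 417 of 770 male and 379 of 688 female endothelial cells. Within cluster 2 the levels were 430.1, 560.3 and 623.9 CPM, and ERaKO over female was −0.54 (−0.67 to −0.41), under 1.5-fold. Cluster 18 had 124.8, 225.0 and 539.4 CPM (−2.10, −2.73 to −1.53) and cluster 11 had 85.3, 101.8 and 155.1 CPM (−0.86, −1.46 to −0.30). In cluster 3 it was low, at 7.06, 19.1 and 12.7 CPM.

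Outside the endothelium, Gpihbp1 was found in cells rich in endothelial markers. Of its UMIs in kept cells, 82.5% in the ERaKO, 96.0% in the male and 92.9% in the female library lay in endothelial cells, and 13%, 1.3% and 2.42% in mesangial cells. The 17 ERaKO mesangial cells with a Gpihbp1 UMI summed to 13252.2 CPM over 11 endothelial markers, against 1685.2 CPM in the 132 without one. With cells of 10 or more endothelial marker UMIs left out, mesangial cells and phagocytes of all 3 libraries had 0 Gpihbp1 UMIs. Podocytes held 4, 5 and 24 UMIs (0.565, 0.476 and 1.54 CPM), and the sign of both podocyte ratios turned when libraries were clustered separately (0.23 for ERaKO and 0.20 for male over female).

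Angptl4, the secreted inhibitor of the lipase, was highest, of the 7 classes, in mesangial cells and lower in ERaKO and male podocytes than in female ones. Podocytes had 10.3 CPM (8.08 to 13) in ERaKO, 11.5 (9.56 to 13.8) in male and 31.2 (28.5 to 34.1) in female cells, so that the female library stood apart (ERaKO over female −1.51, −1.97 to −1.24; male over female −1.36, −1.74 to −1.15). After thinning to 4000 UMIs, 3.86%, 4.72% and 9.99% of podocytes held a UMI, against 0.211%, 0.390% and 0.291% of endothelial cells. ERaKO and male podocytes had overlapping intervals, unlike for Lpl, where the male level was close to the female one.

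Mesangial Angptl4 was 79.6 CPM in ERaKO, 128.0 in male and 120.8 in female cells, and ERaKO over female (−0.60, −1.04 to −0.15) became 0.03 with libraries clustered separately. Proximal tubule cells had 17.2, 57.4 and 74.0 CPM (ERaKO over female −2.05, −2.61 to −1.63). Within proximal cluster 15 they had 59.1, 65.3 and 177.0 CPM, so the female library was highest within that cluster too. Smooth muscle cells had 20.7, 36.5 and 37.4 CPM and parietal cells 12, 13.3 and 22.7 CPM. Endothelial cells held 6 UMIs in each library.

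Cd36, the fatty acid uptake protein, was found in capillary endothelium, proximal tubule and phagocytes, and was low in male endothelium. Endothelial cells had 40.1 CPM (34.6 to 46.2) in ERaKO, 17.6 (14.5 to 21.1) in male and 53.2 (48.0 to 59.0) in female cells. The male level was 2.92-fold lower than the female one (−1.55, −1.92 to −1.29) and the ERaKO level 1.32-fold lower (−0.40, −0.67 to −0.15). Within cluster 2 the levels were 95.5, 24.5 and 89.5 CPM, with an ERaKO over female ratio whose interval included 0 (0.09, −0.20 to 0.39) and a lower male level (−1.83, −2.28 to −1.47). Male over female, cluster 3 had −0.92 (7.47 and 15 CPM) and cluster 18 had −2.53 (23.2 and 138.4 CPM).

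In the tubule Cd36 was 77.5 CPM in ERaKO, 60.4 in male and 71.5 in female cells, nearly all of it proximal. Cluster 16 had 184.8 CPM in ERaKO and 293.1 in female cells, and male cells of cluster 14 had 234.8. Of the 373 Cd36 UMIs of ERaKO proximal cells 365 lay in cluster 16, so the 36 ERaKO cells of cluster 14 held few. Phagocytes had 7.88, 49.4 and 94.0 CPM, from 3, 32 and 62 UMIs (ERaKO over female −3.42, −5.89 to −1.96). Endothelial markers summed to 12851.8 CPM in ERaKO and 6431.2 CPM in female phagocytes with a Cd36 UMI, against 567.0 and 338.3 CPM in those without; in male phagocytes the sums were 129.5 and 197.2 CPM. Without endothelial-rich cells, phagocyte Cd36 was 2.97, 50.7 and 67.2 CPM. Podocytes held 4 Cd36 UMIs in ERaKO, 26 in male and 5 in female cells (0.565, 2.48 and 0.321 CPM). After thinning to 4000 UMIs, 0.129%, 1.40% and 0.150% of podocytes had a UMI, and in the male library 1.41% of smooth muscle and 1.64% of parietal cells did. ERaKO mesangial cells had 22.5 CPM against 3.77 in female ones, and 3.23 against 6.71 without the cells rich in endothelial markers.

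Fabp4, the fatty acid binding protein of adipocytes and capillaries, was high in every endothelial cluster. The class had 772.5 CPM (747.8 to 797.8) in ERaKO, 793.9 (772.2 to 816.1) in male and 1138.7 (1113.7 to 1164.0) in female cells, so both were lower than female by less than 1.5-fold (−0.56, −0.62 to −0.50 for ERaKO; −0.52, −0.57 to −0.47 for male). Within cluster 2 the levels were 977.9, 792.0 and 1419.8 CPM and the male ratio was −0.84 (−0.92 to −0.77), past 1.5-fold. Cluster 11, led by Fabp4 itself, had 1954.2, 1747.5 and 1966.0 CPM.

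Smooth muscle Fabp4 was 84.5 CPM in ERaKO, 115.6 in male and 367.5 in female cells (ERaKO over female −2.11, −2.40 to −1.85; male over female −1.66, −1.91 to −1.43). It lay mostly in cluster 8, led by Rgs5 and Notch3, at 210.6, 258.5 and 620.3 CPM, and the ratios there were −1.55 and −1.26. Endothelial markers summed to 503.1, 422.5 and 444.6 CPM in smooth muscle, without the order of Fabp4, and the class ratios were −2.16 and −1.67 without endothelial-rich cells. Smooth muscle cells with a Fabp4 UMI had 1099.3, 879.9 and 691.1 CPM of these markers, against 379.6, 319.3 and 312.6 CPM in those without. The part of endothelial RNA in smooth muscle Fabp4 was not tested. In mesangial cells and phagocytes Fabp4 came with endothelial markers: in 18 ERaKO mesangial cells with a UMI they summed to 13079.7 CPM, against 1690.9 CPM in the 131 without.

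Vldlr was highest, of the 7 classes, in the parietal epithelium that lines Bowman's capsule. Parietal cells had 87.2 CPM in ERaKO, 105.9 in male and 59.5 in female cells, so the female library was lowest (ERaKO over female 0.54, 0.16 to 0.96; male over female 0.82, 0.42 to 1.26). A UMI was found in 65.0%, 58.2% and 47.4% of parietal cells, and in 29.6%, 33.6% and 17.9% after thinning to 4000 UMIs. Smooth muscle cells had 33.9, 29.3 and 19.9 CPM (ERaKO over female 0.74, 0.07 to 1.51) and mesangial cells 23.1, 39.6 and 39.6 CPM. Tubule cells had 29.7, 33.9 and 27.3 CPM and contractile cells of cluster 13 had 96.0, 78.1 and 74.6 CPM. Podocytes held 5, 4 and 6 UMIs and endothelial cells 6, 11 and 15.

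The counts of members apart were as follows in the large classes. ERaKO over female, 3 of the 5 members with at least 20 podocyte UMIs were apart, all lower (Lpl, Gpihbp1 and Angptl4), where 6.58% of 11347 genes were apart (2.87% higher and 3.71% lower); Cd36 and Vldlr had too few UMIs to count. Male over female, 4 of 6 were apart in podocytes, Cd36 higher and Gpihbp1, Angptl4 and Fabp4 lower, where 3.98% of genes were (2.06% higher and 1.92% lower). The male count was 1 or 2 in 6 of the 16 alternatives. In the ERaKO contrast podocyte Gpihbp1 was past 1.5-fold in 8 of 16. In endothelial cells 2 of 6 were apart in the ERaKO contrast, Lpl and Gpihbp1, both lower, where 8.82% of genes were (3.99% higher and 4.83% lower). In the male contrast 1 of 6 was, Cd36, lower, where 6.23% of genes were (2.88% higher and 3.35% lower). The members were chosen on these contrasts, which share the female library, so these counts support nothing.

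In the small classes many genes were apart. ERaKO over female, 4 of 7 members were apart in mesangial cells (18.9% of genes), 4 of 5 in smooth muscle (18.1%), 3 of 4 in parietal cells (16.8%), 1 of 6 in tubule cells (19.0%) and 3 of 4 in phagocytes (26.4%). Male over female the counts were 2 of 6 in mesangial cells (19.0%), 1 of 4 in smooth muscle (14.6%), 3 of 5 in parietal cells (16.7%), 2 of 5 in tubule cells (13.1%) and 4 of 4 in phagocytes (26.0%). With the large classes counted too, Angptl4 was the member most often apart in the ERaKO contrast, lower than female in 5 of 7 classes.

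**Figure D4:**
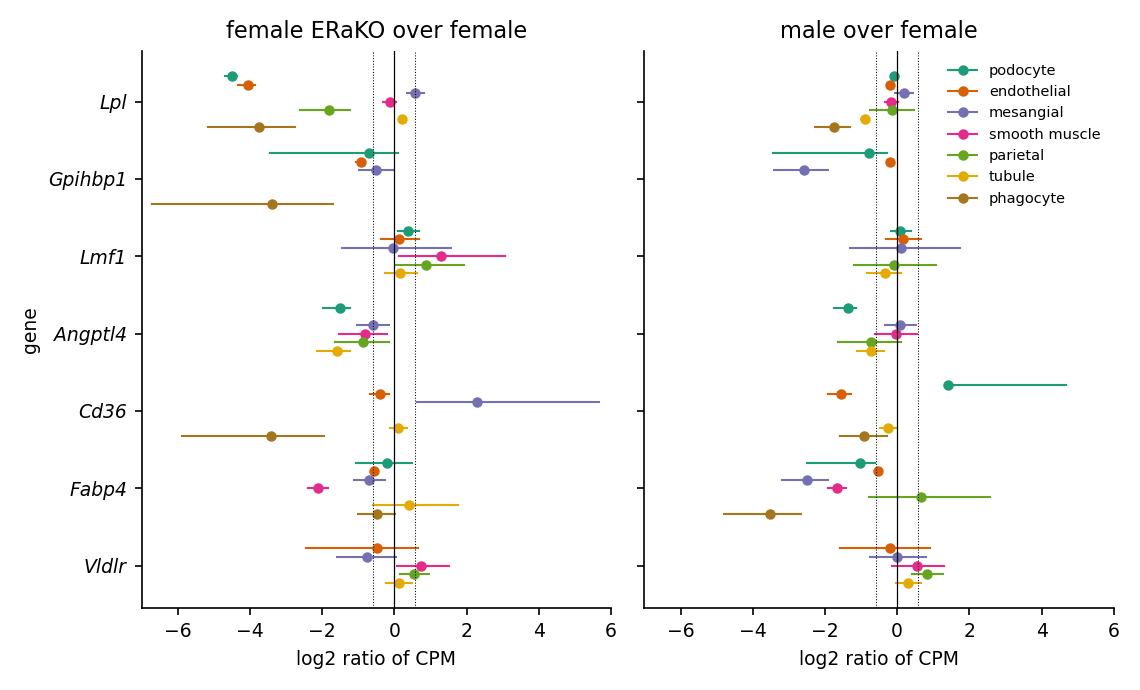
Log2 ratios of CPM (x axis) of the 7 members (rows) in 7 cell classes (colours), ERaKO over female on the left and male over female on the right. Points need at least 20 summed UMIs and a UMI in both libraries; bars are 95% counting intervals of the ratio without pseudocount and dotted lines mark 1.5-fold. Lpl of ERaKO podocytes and endothelial cells lies at −4.50 and −4.05, and the same classes lie at −0.10 and −0.21 in the male contrast.

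A wider set of lipid genes, without the 7 members, had a median ratio near that of all genes in podocytes, but a larger share apart. The lists were chosen with earlier results of these data known, so that share supports nothing. Of 103 genes in 6 lists (lipolysis and apolipoproteins, lipoprotein receptors, fatty acid uptake, lipid droplets, PPAR and oxidation, and lipid synthesis), 71 had at least 20 UMIs in ERaKO and female podocytes. Of them 8 were higher and 5 lower in ERaKO, where 2.87% of all genes were higher and 3.71% lower, with a median log2 ratio of 0.00 against −0.01 over all genes. Among the genes past 1.5-fold with at least 100 UMIs, the lowest were Lpin1, a phosphatidate phosphatase of triglyceride synthesis (−1.14, −1.54 to −0.87), Abca1, the cholesterol exporter (−0.87, −1.25 to −0.60), and Cpt1a, which lets fatty acids into mitochondria (−0.76, −0.99 to −0.56). The highest were Lrp2 (1.61), Apoe (1.37) and Mgll, which splits monoglycerides (1.06, 0.88 to 1.29).

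Lrp2, or megalin, is a proximal tubule gene. The 12 proximal markers together, Lrp2 among them, summed to 155.9 CPM in ERaKO, 109.3 in male and 48.2 in female podocytes. The part of that RNA in the Lrp2 ratio was not tested. Apoe had 10.9, 2.38 and 3.6 CPM in podocytes and 458.4, 65.1 and 94.7 CPM in tubule cells. The part of tubule RNA in the podocyte Apoe ratio was not tested either. Male over female, 3 of 73 list genes were higher and 4 lower in podocytes (median 0.02), where 2.06% of all genes were higher and 1.92% lower. Those named by the same rule were Slc27a2 (0.90) and Lrp2 (0.67), both proximal markers, and Ucp2, a mitochondrial uncoupling protein (−0.71, −0.78 to −0.64, from 2232 and 5404 UMIs).

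In endothelial cells 9 of 73 list genes were higher and 3 lower in ERaKO than in female (median 0.05, against 0.03 over all genes), where 3.99% of all genes were higher and 4.83% lower. Cpt1a was again lower, at 42.4 against 69.8 CPM (−0.71, −0.96 to −0.48), and male cells had 58.6 CPM. Fasn, the fatty acid synthase, was higher in ERaKO (0.72, 0.26 to 1.33) and in male cells (1.0, 0.61 to 1.57), both against the same female library. Male endothelial cells also had more Scd2, a fatty acid desaturase (0.89, 0.69 to 1.13). Slc27a2 was higher in both contrasts (0.96 and 0.89) and Lrp2 in ERaKO (0.86), beside proximal marker sums of 175.7, 148.4 and 65.9 CPM.

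Genes tied to the members by function had the following levels. Lipg, the endothelial relative of the lipase, had 0, 1 and 4 UMIs in endothelial cells and 0 in podocytes. Parietal cells had 49 UMIs in ERaKO (12 CPM, 8.85 to 15.8) and 1 UMI each in male and female cells (0.532 and 0.945 CPM), and tubule cells 18, 17 and 8 UMIs. Pparg, the nuclear receptor that drives Lpl, Cd36 and Fabp4 in adipocytes, had 5.01 CPM in ERaKO, 8.15 in male and 9.21 in female endothelial cells and 1, 0 and 0 UMIs in podocytes, and Ppara had 2.12, 3.71 and 2.18 CPM in podocytes. Pdk4, a PPAR target that spares glucose, had 1.98, 1.52 and 4.88 CPM in podocytes and 1.04, 2.66 and 4.17 CPM in endothelial cells, so female cells were highest in both. Plin2, a lipid droplet coat protein, had 26.7, 27.7 and 36.1 CPM in podocytes and 37.6, 41.4 and 45.5 CPM in endothelial cells.

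Scarb1, the HDL receptor, was far higher in endothelial cells than in podocytes. It had 42.8 CPM in ERaKO, 43.6 in male and 41.4 in female endothelial cells, against 0.424, 0.190 and 0.257 CPM in podocytes. Fabp5, a relative of Fabp4, had 71.0, 80.4 and 98.9 CPM in endothelial cells. Podocytes had 19.2, 9.90 and 10.3 CPM and tubule cells 47.1, 8.09 and 23.9 CPM, with the ERaKO library highest in both. Lrp1 had 5.43, 5.33 and 2.88 CPM in endothelial cells, and Apoe had 55.8, 68.5 and 79.1 CPM there.

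The genes most like Lpl followed it only loosely. Over the 21 class-by-library sums, whose points share 3 libraries, the highest Pearson correlations of log2(CPM + 1) with Lpl were 0.665 for Mrs2, a mitochondrial magnesium channel, 0.664 for Pgp, 0.640 for Bcar3, 0.639 for Tbc1d1 and 0.629 for Syap1. Mrs2 had 27.4 CPM in ERaKO, 34.2 in male and 33.0 in female endothelial cells, without the wide ERaKO difference of Lpl. The other members had genes more like them. Gpihbp1 went with the endothelial genes Ehd3 (0.963), Kdr (0.959) and F8 (0.957), and Fabp4 with Apold1 (0.962), Calcrl (0.962) and Klf2 (0.943).

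Vldlr was most like Kctd1 (0.961), Zfp618 (0.956) and Rab34 (0.948), Angptl4 like Khdrbs3 (0.908), Dlg3 (0.905) and Chn1 (0.894), Cd36 like Slc26a2 (0.897), Vav3 (0.889) and Plcg2 (0.861), and Lmf1 like Vamp8 (0.807), Tmem189 (0.805) and Ppa1 (0.772). Among the members themselves the highest correlations were 0.772 between Gpihbp1 and Fabp4 and 0.625 between Angptl4 and Vldlr. Lpl correlated with none of its partners above 0.224.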

How the data were processed

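The values are counts of unique molecular identifiers (UMIs, which mark single captured RNA molecules) per gene and cell barcode, deposited by the authors as raw matrices of 10x 3′ libraries. The submitters' processing notes name the mm10 build, STAR 2.7.5a and Cell Ranger 6.1.2. From these counts, cells passed with 500 genes or more and a mitochondrial share of UMIs up to 25%, doublets called per library with Scrublet (scanpy 1.11.5) were removed, and cells of all libraries were clustered together (2000 variable genes, 30 components, Leiden resolution 1, no integration). The 7 members, mitochondrial genes and sex-linked genes were left out of clustering. Clusters were named from fixed marker lists; the minima for a name (a median log2 marker score of 1, a lead of 0.75 and at least 3 markers 2-fold higher) were set after the clusters had been seen, so class names are rebuilt and may differ from the study's. The class "tubule" joins proximal, loop, distal and collecting duct clusters.

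UMIs were summed per class and library and given as CPM (counts scaled to a sum of 1000000). A log2 ratio compares CPM with a pseudocount of 1; its interval is the exact conditional Poisson interval of the ratio without the pseudocount, so at a few UMIs the ratio can lie outside it. Level intervals are exact Poisson and share intervals exact Clopper-Pearson, all at 95%. All intervals and all limits from a count of 0 (3 counts) cover counting error only. There is 1 library per group, so no test was made: "apart" means at least 20 summed UMIs and 1.5-fold or more in either direction, set beside the same share over all genes. Podocyte counts of female ERaKO and female depth were simulated over 11347 genes with counting error only. On them this rule recovered 92.0% of 100 genes changed 2-fold and 99.0% of 100 changed 4-fold. It passed 1.13% of 11147 unchanged genes, a share that leaves out differences between animals or libraries.

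The named genes were the 7 members; of 6 lipid lists without the members, the 3 highest and 3 lowest ratios per class and contrast with at least 100 UMIs and 1.5-fold; further lipid genes for their level (not all are reported here); the genes most like each member by correlation of log2(CPM + 1) over 21 class sums; and the annotated genes within 1 Mb of Lpl. Members and lists were chosen with earlier results of these data known. Alternatives covered the filters, doublets, clustering, naming, scaling with TMM factors from edgeR 4.0.16, pseudocount and thinning of each cell to 4000 UMIs. Promoters came from RefSeq (GRCm38.p6), gene positions from the GENCODE annotation of GRCm38.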

Additional observations from a re-analysis of the deposited data

Results flagged for a closer look

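Lpl lay on opposite sides of the female level in different classes of the same ERaKO library, with a mesangial sign that turned under some alternatives. The log2 ratio of female ERaKO over female was 0.57 in mesangial cells, against −4.50 in podocytes, −4.05 in endothelial cells, −1.81 in parietal cells and −3.75 in phagocytes. The difference between the classes was not tested, since each group has 1 library. The mesangial value rests on 149 ERaKO and 51 female cells. It ranged between −0.10 and 1.09 over 16 alternatives.

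Cd36 also differed in direction between classes, and these differences were not tested either. ERaKO over female, its ratio was 2.30 in mesangial cells and −3.42 in phagocytes; the mesangial value was −0.86 once cells rich in endothelial markers were left out. Male over female, the ratio was 1.40 in podocytes, from 26 and 5 UMIs, against −1.55 in endothelial cells and −0.92 in phagocytes (−0.40 without cells rich in endothelial markers).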

How the results depend on the processing

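No paired analysis was possible because each group has 1 library, and for the same reason no library could be left out. The podocyte Lpl ratios kept their direction and their side of 1.5-fold in all 16 alternatives in both contrasts. The same held in both contrasts for Angptl4 in podocytes and Fabp4 in smooth muscle. It also held for Lpl and Gpihbp1 in ERaKO endothelial cells and for Cd36 in male endothelial cells. Of the 3 members apart between ERaKO and female podocytes, Gpihbp1 ranged between −1.30 and 0.23. It was past 1.5-fold in 8 of the 16 alternatives. The members apart between male and female podocytes numbered 4, but 2 with a stricter cell filter (1000 genes or more, mitochondrial share up to 10%), 2 with no doublets removed, 2 after thinning, 2 without cells of 10 or more endothelial marker UMIs (chosen after seeing the data), 1 with libraries clustered separately and 1 with a pseudocount of 5 CPM. In male endothelial cells the count was 1, and 2 after thinning or as a mean over cells. The lipid list counts moved only with the pseudocount: with 5 CPM they were 7 in ERaKO endothelial cells, 3 in male podocytes and 4 in male endothelial cells, and with 0.1 CPM 13 in male endothelial cells.

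Reversals concerned few UMIs or small classes, and their cause was not tested. Mesangial Lpl, ERaKO over female, was 0.57 but −0.10 with doublets kept and −0.04 with unnamed clusters added. With libraries clustered separately, ERaKO over female became 0.23 for Gpihbp1 in podocytes, 0.03 for Angptl4 and 0.24 for Vldlr in mesangial cells. Without endothelial-rich cells, it became −0.86 for Cd36 and 2.08 for Fabp4 in mesangial cells. Male over female, podocyte Gpihbp1 became 0.18 with the stricter filter, 0.16 with doublets kept, 0.20 with separate clustering, 0.10 after thinning and 0.16 without endothelial-rich cells. Parietal Angptl4 became 0.43 with separate clustering, 0.12 with unnamed clusters added and 0.47 after thinning, parietal Fabp4 −0.47 without endothelial-rich cells, and tubule Lpl 0.01 with the stricter filter.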
